A study of Mus musculus with 59 samples.

Results

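The comparison described here set the pons of mice heterozygous for an Atxn3 knock-in allele with a duplicated Q82 repeat against the pons of wild-type mice. Its members were chosen by the genotype in the labels, among libraries whose values stand in the table of expression levels: 6 heterozygous duplicated knock-in libraries (called dupKi-het below) and 6 wild-type libraries of the same block. The 2 blocks are runs of columns, told apart only by where the wild-type numbers start again. The libraries compared were 12 of the 59 samples of the series and 12 of the 37 pons libraries with values. All came from the C57BL/6 strain, and total RNA was taken from dissected pons. The knock-in allele lies in the mouse's own Atxn3 gene, so it is under that gene's own promoter, and the labels give no cell type to which it is limited, no age and no treatment. The other genotypes used for comparison were, in the same (second) block, mice heterozygous (Ki-het) or homozygous (Ki-hom) for a single Q82 repeat in Atxn3 and mice hemizygous for human ATXN3 with a Q84 (YAC84Q) or Q15 (YAC15Q) repeat, and, in the first block with its own 3 wild-type libraries, mice homozygous for the duplicated repeat (dupKi-hom) and Atxn3 knockouts. The study's text speaks of mice, but nothing in the labels ties each library to a separate animal or litter, so the p-values measure the spread between these samples.

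Spinocerebellar ataxia type 3 is an inherited ataxia caused by a lengthened CAG repeat in ATXN3, which encodes ataxin-3, a deubiquitinase that trims ubiquitin chains. The pons is among the regions affected in patients. Astrocytes there take up glutamate and GABA, turn glutamate into glutamine and clear potassium, while oligodendrocytes wrap the dense fibre tracts of the pons in myelin. In bulk tissue, fewer cells of a type and less RNA per cell of that type cannot be told apart, and this holds for every cell type group below.

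Expression is given in FPKM as deposited by the authors, a unit that corrects for the length of a gene's transcript and for how deeply its library was sequenced. Differences are between means of log2(FPKM + 1), a scale on which changes of weakly expressed genes come out too small, and each fold is that difference taken out of the log. The test throughout was limma's moderated test with Benjamini-Hochberg adjustment over all genes tested, and a gene is called where its adjusted p is under 0.05. The number of reads behind each library is unknown, since FPKM values do not keep it. The summed FPKM ran from 484718 to 560334 in wild-type and from 430083 to 533463 in dupKi-het libraries, and the genes at 1 FPKM or more numbered 13772 to 13944 and 13728 to 13942. Pontine and neuronal markers were in place in both groups: Snap25, a synaptic vesicle fusion protein, stood at 1765 to 1865 FPKM in wild-type and 1702 to 1869.6 FPKM in dupKi-het, Slc17a6, the vesicular glutamate transporter of brainstem neurons, at 66.3 to 87.1 and 72.4 to 86.5 FPKM, and Slc6a5, the glycine transporter of inhibitory brainstem neurons, at 61.5 to 91.3 and 63.7 to 85.7 FPKM. Libraries of both groups held Xist and almost no Ddx3y, as female tissue does. Ttr, the main secreted protein of the choroid plexus, varied widely between libraries, from 27.7 to 643 FPKM in wild-type (median 112) and from 14.2 to 2470.3 FPKM in dupKi-het (median 884). Library 1 of every genotype in the block departed from its genotype's mean in a shared direction.

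Atxn3 itself was higher in dupKi-het. In mouse, the repeat that is lengthened in the disease lies at the start of exon 10 of transcript Atxn3-201 (GENCODE M21, build GRCm38, chr12:101926484-101926581, minus strand, all coding), which is printed because the knock-in allele differs from it in this tract. Capitals mark the tract of 6 glutamine codons, 1 CAA and 5 CAG.
Atxn3 exon 10: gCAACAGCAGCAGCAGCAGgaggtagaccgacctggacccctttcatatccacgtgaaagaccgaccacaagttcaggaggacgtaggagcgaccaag
The 6 wild-type libraries held 7.40, 6.20, 7.19, 8.15, 6.42 and 6.94 FPKM of Atxn3, and the 6 dupKi-het libraries held 10.7, 13.4, 10.4, 12.8, 12.7 and 10.7 FPKM. Every dupKi-het library was above every wild-type library. The means were 7.05 ± 0.705 FPKM (SD, n = 6) and 11.8 ± 1.31 FPKM (SD, n = 6), a difference of 0.67 (SE 0.0766, 95% interval 0.51 to 0.82) or 1.59-fold, with an adjusted p of 2.79e-06 in limma. The call held in all 12 fits that each left out 1 library, with a largest adjusted p of 1.62e-05. The single repeat did not show this rise: mean Atxn3 was 6.10 ± 0.620 FPKM in Ki-het and 5.55 ± 0.0790 FPKM in Ki-hom. DupKi-het exceeded Ki-het by 0.85 (limma adjusted p = 1e-06) and Ki-hom by 0.96 (limma adjusted p = 2.31e-07) on the log2 scale. FPKM per gene does not say which allele the reads came from, and how reads over a repeat added to the allele were counted is not given in the sources used here. No other gene of the repeat-disease list changed (9 tested, 1 higher, 0 lower).

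Of 14752 genes tested, 378 were called in dupKi-het against wild-type (2.56% of those tested), 174 higher (1.18%) and 204 lower (1.38%). At an unadjusted p under 0.05 there were 1865 genes. The changes were small: called genes had a median difference of 0.29 when higher and -0.40 when lower, 77 genes passed 0.5 on the log2 scale in either direction (20 higher, 57 lower), and 7 passed 1 (2 higher, 5 lower). The median over all genes tested was 0.01. In 368 of the 378 called genes the 6 dupKi-het libraries all deviated from the mean of wild-type in 1 direction. The groups did not overlap at all in 292 genes (1.98% of those tested; 0.861% with dupKi-het above and 1.12% with it below), of which 228 were called. Calls among abundant genes were mostly lower: of 814 genes with a mean of 100 FPKM or more, 36 were called lower and 2 higher, while among 5429 genes with means of 5 to 20 FPKM 83 were higher and 56 lower. The balance of 174 higher and 204 lower calls over all levels depends on the settings. Shifting each library to a common median gave 127 higher and 270 lower of 397 calls, while array weights gave 297 higher and 282 lower, and a choroid plexus covariate, added after seeing the data, 196 higher and 183 lower. Fitting the 2 genotypes alone called 227 genes, and without the 7 libraries of the block whose Ttr reached 1000 FPKM (dupKi-het libraries 1, 4 and 6 and 4 libraries of other genotypes) 267 genes were called, 149 higher and 118 lower, of which 184 were also among the 378.

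**Figure D1:**
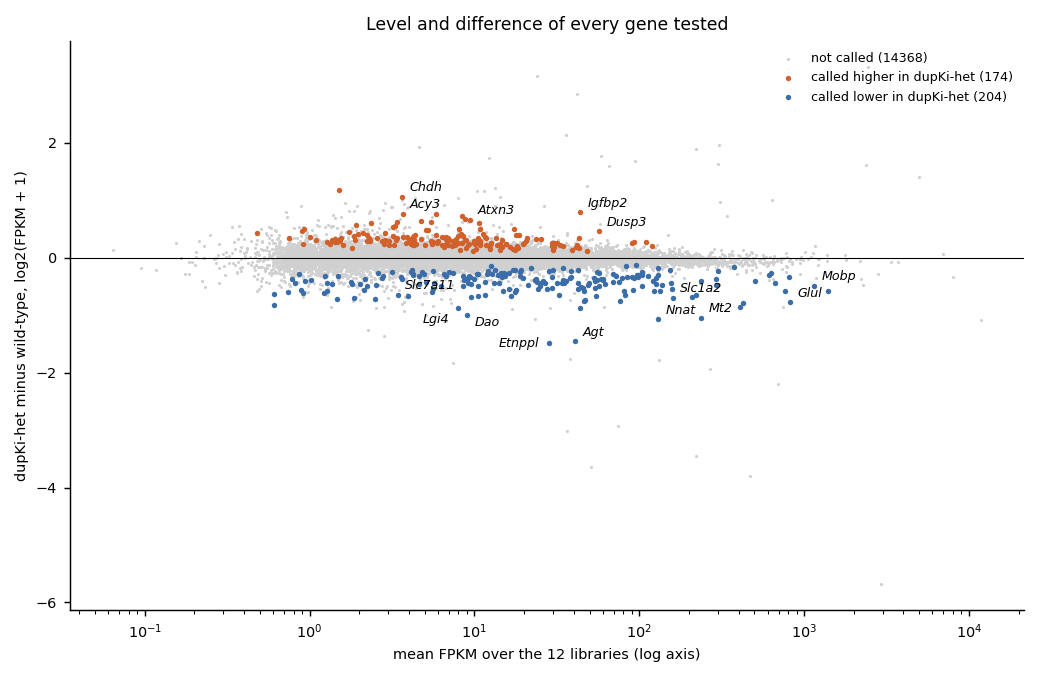
Difference between dupKi-het and wild-type pons on the log2(FPKM + 1) scale (vertical axis) against the mean FPKM of the gene (horizontal axis, log scale) for the genes tested, 1 point a gene, leaving out 6 genes at 0 in all 12 libraries, with called genes in colour and some named. Called genes above 100 FPKM lie almost all below 0 (36 lower, 2 higher), and Etnppl and Agt are the lowest of the called genes. Of the 24 uncalled genes beyond 1.5 in either direction, 23 are listed at 0 in some libraries.

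Genes of astrocytes fell together. Of 30 tested genes of astrocyte identity, 19 were lower in dupKi-het, none was higher, and the median difference was -0.43, against 0.01 over all genes tested. Their summed level was 4198 to 4723 FPKM in wild-type and 3016 to 3292 FPKM in dupKi-het libraries, and the sums did not overlap. Abundant called members weigh heavily in these sums. Glul and Aldoc, described below, held 994 and 825 of 4225 FPKM in wild-type library 1 and 600 and 534 of 3016 FPKM in dupKi-het library 1. The count was 17 to 20 in fits that left out 1 library and 15 without the libraries rich in Ttr.

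The sharpest fall among them was that of Etnppl, which encodes ethanolamine-phosphate phospho-lyase, an enzyme of phospholipid breakdown. Etnppl ran from 37 to 49.5 FPKM in wild-type (median 41.6) and from 10.8 to 19.7 FPKM in dupKi-het (median 13.9). The highest dupKi-het library was thus far below the lowest wild-type library, and the fall was -1.48 (SE 0.116) or 2.79-fold, with a limma adjusted p of 5.13e-09. Agt encodes angiotensinogen, the precursor of angiotensin, which astrocytes make in the brain. Agt ran from 50.5 to 66.3 FPKM in wild-type (median 62.4) and from 15.9 to 24.0 FPKM in dupKi-het (median 22.5). Again the groups were far apart, by -1.45 (SE 0.103) or 2.74-fold, with a limma adjusted p of 1.02e-09. Itih3, a protein that binds hyaluronan in the extracellular matrix, stood at 50.003 to 64.4 FPKM in wild-type and 23.1 to 33.8 FPKM in dupKi-het, 1.83-fold lower (limma adjusted p = 7.38e-06). Aldoc, the glycolytic aldolase of brain, stood at 825 to 1049 FPKM and 534 to 639.6 FPKM, 1.49-fold lower (limma adjusted p = 1.78e-06). Neither gene overlapped between the groups.

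**Figure D2:**
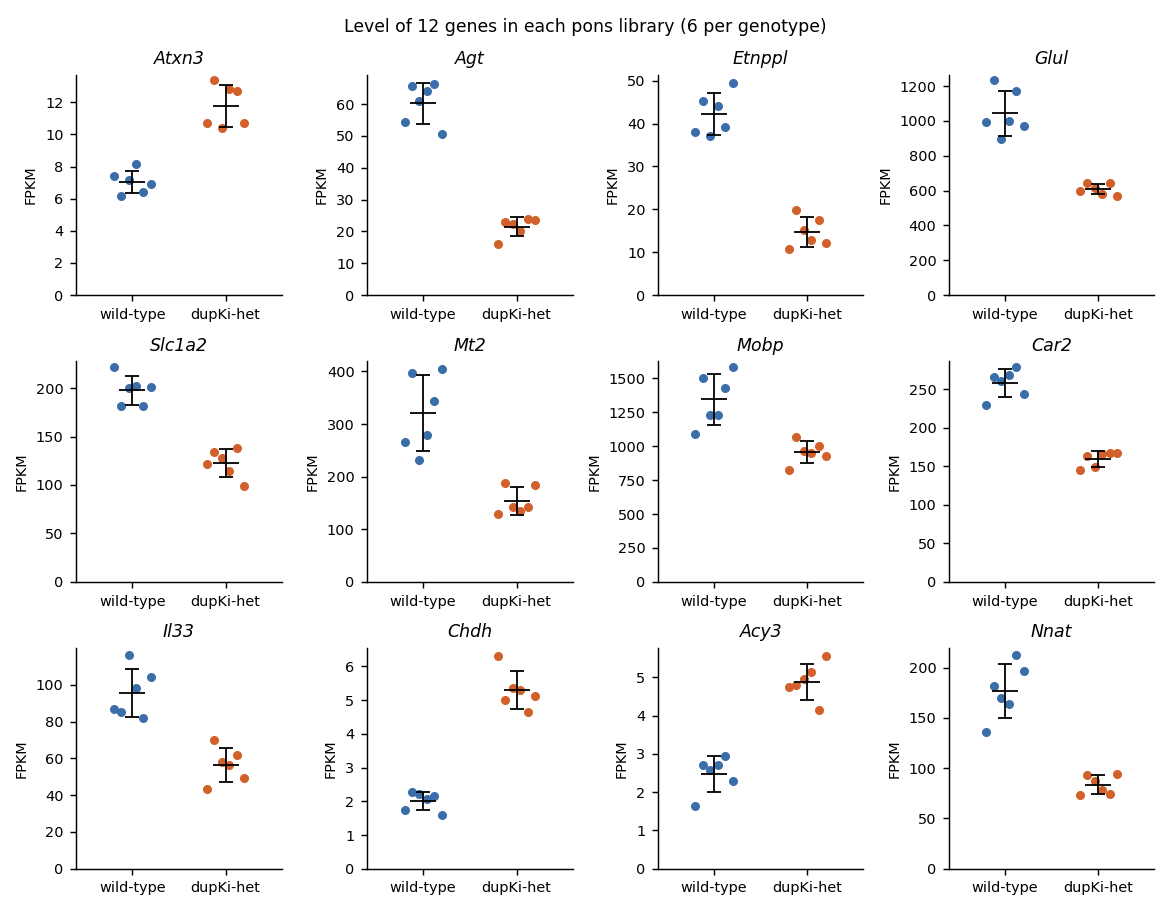
FPKM in each of the 6 wild-type and 6 dupKi-het pons libraries for genes described in the text, 1 point a library, with the mean of each group as a bar and each panel on its own vertical axis. Agt, Etnppl and Car2 are lower, and Chdh and Atxn3 higher, in every dupKi-het library than in every wild-type library.

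The machinery with which astrocytes clear transmitter and potassium was part of the fall. Slc1a2 encodes GLT-1, the main glutamate transporter of the forebrain and a major one in brainstem. It ran from 181 to 221 FPKM in wild-type (median 200.1) and from 98.8 to 138 FPKM in dupKi-het (median 125). The ranges were apart, and the fall was 1.61-fold (difference -0.69, limma adjusted p = 3.57e-08). Glul encodes glutamine synthetase, which turns the glutamate taken up into glutamine. It ran from 897 to 1233 FPKM in wild-type (median 996) and from 571 to 644 FPKM in dupKi-het (median 606), 1.71-fold lower with no overlap (difference -0.77, SE 0.0658, limma adjusted p = 1.75e-08). Kcnj10 encodes Kir4.1, the inward-rectifier channel through which glia buffer potassium. It ran from 146 to 169.5 FPKM in wild-type (median 162) and from 99.7 to 117 FPKM in dupKi-het (median 106). This difference was -0.57 (SE 0.0454) or 1.48-fold, with a limma adjusted p of 6.55e-09. The astrocytic GABA transporter Slc6a11 (GAT-3) was 1.46-fold lower (170.4 to 209 against 118 to 143 FPKM, limma adjusted p = 3.43e-08). Slc6a9, the glial glycine transporter, was 1.25-fold lower (118 to 134 against 94.3 to 107 FPKM, limma adjusted p = 0.000706). In all, 5 of 19 genes of glutamate and GABA uptake were called, all of them lower.

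The other 11 genes of the astrocyte identity list did not pass the test. Among genes picked after their values were seen because they are common astrocyte markers, Gfap, the intermediate filament of astrocytes, ran from 124 to 210.1 FPKM in wild-type and from 67.4 to 129.9 FPKM in dupKi-het but missed the threshold (difference -0.56, limma adjusted p = 0.0587). Aldh1l1, a folate enzyme used to label astrocytes, had almost the same range in both groups (21.0 to 25.9 and 19.4 to 24.6 FPKM, difference -0.13, not called). S100b, a calcium-binding protein of glia, stood at 252 to 343 and 314 to 354 FPKM (difference 0.14, not called). The differences of Sox9, a transcription factor of astrocytes, and Slc1a3, the GLAST glutamate transporter, were -0.10 and -0.06, and neither was called. Of 15 genes of reactive gliosis, 2 were lower and none higher.

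The metallothioneins Mt1 and Mt2, small cysteine-rich proteins that bind zinc and copper and are strongly expressed in astrocytes, also fell. In mouse they are neighbours on chromosome 8, and their transcription is driven by the factor MTF1 through metal response elements. The 250 bases before each start are printed (RefSeq, GRCm38.p6, plus strand), as the members of this family that fell stand side by side in the genome. Capitals mark matches, on either strand, to the metal-response core, searched as TGCGCNC or TGCACNC.
Mt1, chr8:94178839-94179088: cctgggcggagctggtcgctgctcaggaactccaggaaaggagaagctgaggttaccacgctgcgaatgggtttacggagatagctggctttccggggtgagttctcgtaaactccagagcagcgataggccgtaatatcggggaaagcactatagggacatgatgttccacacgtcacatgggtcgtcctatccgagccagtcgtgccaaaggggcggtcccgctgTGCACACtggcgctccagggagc
Mt2, chr8:94172368-94172617: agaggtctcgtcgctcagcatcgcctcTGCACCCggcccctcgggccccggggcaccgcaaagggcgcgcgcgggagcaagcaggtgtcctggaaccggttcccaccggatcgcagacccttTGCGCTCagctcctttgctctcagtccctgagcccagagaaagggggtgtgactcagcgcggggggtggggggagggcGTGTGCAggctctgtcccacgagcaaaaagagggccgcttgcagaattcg
The Mt1 window holds 1 match and the Mt2 window 3. Of 32851 RefSeq windows of the same length, 21.4% hold at least 1 match and 1.26% at least 3. Bases outside the windows, including those after the annotated start, were not searched, so these are not counts of all the elements of either gene. Mt1 ran from 398 to 665 FPKM in wild-type (median 545) and from 227 to 339 FPKM in dupKi-het (median 292), a fall of 1.8-fold (difference -0.85, limma adjusted p = 4.01e-05). Mt2 ran from 231 to 405 FPKM (median 311) and from 129 to 188 FPKM (median 142), a fall of 2.06-fold (difference -1.04, limma adjusted p = 4.24e-06). Neither overlapped between the groups. The 2 genes are close paralogs, so reads shared between them make their separate levels uncertain. They were the only called genes of 11 tested for metallothioneins and zinc transport.

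Of 14 tested genes of serine, glycine and D-serine metabolism, 2 were lower, 1 was higher and 11 did not pass the test. Dao encodes D-amino acid oxidase, which in hindbrain astrocytes breaks down D-serine. It ran from 10.8 to 13.6 FPKM in wild-type (median 12.5) and from 3.69 to 6.96 FPKM in dupKi-het (median 5.90). The ranges were well apart, a fall of 2.00-fold (difference -1.0, limma adjusted p = 3.51e-07). Slc7a10, an astrocytic carrier of serine and other small neutral amino acids, was 1.33-fold lower (49.9 to 78.8 against 41.4 to 53.3 FPKM, limma adjusted p = 0.0222) with overlapping ranges. Its call was lost without dupKi-het library 1, 3 or 5 or wild-type library 3 or 6, without the libraries rich in Ttr (difference -0.49, limma adjusted p = 0.0546) and with the 2 genotypes alone (difference -0.41, the same as in the fit of all genotypes). Psat1, the phosphoserine aminotransferase of serine synthesis, rose in place of falling, from 75.3 to 92.7 FPKM in wild-type (median 82.2) to 94.9 to 112 FPKM in dupKi-het (median 101). Its groups did not overlap (1.21-fold, limma adjusted p = 0.00212), although its call was lost without the libraries rich in Ttr (difference 0.22 beside 0.28 with them, limma adjusted p = 0.0958). Slc7a11, the cystine and glutamate exchanger that supplies glutathione synthesis, fell 1.56-fold, from 3.62 to 5.00 FPKM to 2.13 to 2.72 FPKM (difference -0.64, limma adjusted p = 0.00401). The difference was -0.58 without the libraries rich in Ttr (limma adjusted p = 0.0858).

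Genes of mature oligodendrocytes were also lower. Of 36 tested, 13 were lower, none was higher, and the median difference was -0.19. The summed level was 9442 to 11934 FPKM in wild-type and 8402 to 9387 FPKM in dupKi-het. The tested member with the highest difference is also on the choroid plexus list (0.73, not called), so the sums do not stand for oligodendrocytes alone. The count was 13 to 14 in fits that left out 1 library and 11 without the libraries rich in Ttr. Mbp, the myelin basic protein gene, was listed at 0 in both groups while other genotypes held it, and was not tested.

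Car2, carbonic anhydrase 2, which in brain is mostly oligodendrocytic, ran from 230.1 to 279 FPKM (median 264) and from 145 to 168 FPKM (median 164). It was 1.61-fold lower with no overlap (difference -0.69, limma adjusted p = 5.11e-07). Il33, an alarmin of the interleukin-1 family stored in the nuclei of oligodendrocytes and other glia, ran from 82.1 to 116 FPKM (median 92.5) and from 43.2 to 69.8 FPKM (median 57.1), 1.69-fold lower (difference -0.75, limma adjusted p = 1.45e-05). Pmp22, a compact myelin protein best known from peripheral nerve, was 1.59-fold lower (62.8 to 70.2 against 37.1 to 43.9 FPKM, limma adjusted p = 6.16e-08). Mobp, a structural myelin protein, was 1.40-fold lower (1088 to 1587 against 827 to 1071 FPKM, limma adjusted p = 0.000779). Klk6, a secreted serine protease of oligodendrocytes, was 1.66-fold lower (44.5 to 68.8 against 26.6 to 41.8 FPKM, limma adjusted p = 0.00512). None of these overlapped between the groups. Aspa, aspartoacylase, which splits N-acetylaspartate into acetate and aspartate, was 1.36-fold lower (42.8 to 55.7 against 28.4 to 40.0 FPKM, limma adjusted p = 0.0134). Without the libraries rich in Ttr its difference moved from -0.44 to -0.32 and the call was lost (limma adjusted p = 0.216). The call of Mobp was likewise lost without those libraries (difference -0.40, limma adjusted p = 0.0535).

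Other lists of the oligodendrocyte lineage had few calls. Of 12 lineage transcription factors only Zfp488, a repressor that works with Olig2, was called, and it was higher: 2.43 to 3.31 FPKM in wild-type and 3.41 to 4.49 FPKM in dupKi-het (1.27-fold, difference 0.35, limma adjusted p = 0.00489). That difference was 0.33 without the libraries rich in Ttr (limma adjusted p = 0.0549). None of 18 genes of oligodendrocyte precursors was called. Of 17 genes of galactolipid and long-chain lipid synthesis, Fa2h, which makes the hydroxylated fatty acids of myelin galactolipids, was 1.3-fold lower (37.2 to 42.6 against 28.6 to 31.3 FPKM, limma adjusted p = 0.000195), and Elovl1, an elongase of very long fatty acids, 1.27-fold lower (18.8 to 24.9 against 15.2 to 21.6 FPKM, limma adjusted p = 0.00659, overlapping, and not called with the 2 genotypes alone). No gene of cholesterol synthesis was called among 27 tested. The myelin proteins Mag and Cnp, named after their values were seen, differed by -0.09 and -0.08 and were not called.

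A rise was seen in Chdh, choline dehydrogenase, the mitochondrial enzyme that oxidises choline toward betaine. Chdh ran from 1.59 to 2.29 FPKM in wild-type (median 2.12) and from 4.64 to 6.30 FPKM in dupKi-het (median 5.22). The lowest dupKi-het library was above the highest wild-type library by a wide margin, and the difference of 1.06 (SE 0.0674, 2.09-fold on the log2(FPKM + 1) scale) had a limma adjusted p of 2.42e-10. Acy3, an aminoacylase that removes acetyl groups from amino acids, rose from 1.63 to 2.94 FPKM (median 2.63) to 4.14 to 5.56 FPKM (median 4.87). That rise was 1.70-fold with no overlap (limma adjusted p = 2.98e-06). Slc45a3, a sugar transporter of oligodendrocytes, rose from 2.17 to 2.91 FPKM to 3.99 to 5.06 FPKM (1.54-fold, limma adjusted p = 6.73e-05). Abca8a, a lipid transporter of the ABC family, rose from 5.70 to 7.98 FPKM to 9.52 to 13.0 FPKM (1.61-fold, limma adjusted p = 0.0079). Its call was lost without the libraries rich in Ttr (limma adjusted p = 0.0972), where the difference was 0.67 beside 0.68 with them.

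Pcdh15, a protocadherin known from the tip links of hair cells and also present in oligodendrocyte precursors, rose from 2.69 to 3.99 FPKM in wild-type (median 3.49) to 5.29 to 6.69 FPKM in dupKi-het (median 6.01), 1.57-fold with no overlap (limma adjusted p = 7.38e-06). Ccnd2, cyclin D2, which drives entry into the cell cycle, rose from 2.15 to 2.91 FPKM to 3.45 to 4.75 FPKM (1.45-fold, limma adjusted p = 4.00e-05). Dusp3, a dual-specificity phosphatase, rose from 45.2 to 52.7 FPKM to 62.3 to 69.4 FPKM (1.37-fold, limma adjusted p = 6.28e-06), again with no overlap. Among 28 imprinted genes, those expressed from a single parental copy, 1 was lower and 1 higher. Nnat, neuronatin, a small membrane protein, fell from 136 to 212 FPKM (median 176) to 73.3 to 94.7 FPKM (median 82.7), 2.10-fold with no overlap (difference -1.07, limma adjusted p = 2.19e-06). Cdkn1c, which encodes the cell cycle inhibitor p57, was 1.69-fold higher with overlapping ranges (2.93 to 5.13 against 4.58 to 10.8 FPKM, limma adjusted p = 0.0135). Without the libraries rich in Ttr its difference was 0.40 (0.76 with them) and the call was lost (limma adjusted p = 0.196), as it was with the 2 genotypes alone.

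Further called genes follow. Ndrg2, a member of the NDRG family found mainly in astrocytes, fell from 456 to 686 FPKM to 272 to 339 FPKM (1.72-fold, limma adjusted p = 3.91e-07). Fam107a, one of the 19 lower genes of the astrocyte list, fell from 40.8 to 76.9 FPKM to 26.9 to 37.8 FPKM (1.68-fold, limma adjusted p = 0.000248). Lgi4, a secreted glial protein needed for peripheral myelination, fell from 9.70 to 11.3 FPKM to 3.76 to 6.44 FPKM (1.84-fold, limma adjusted p = 7.86e-05). None of these overlapped. Of 12 genes of ErbB and neuregulin signalling, Erbb2ip, the scaffold Erbin that binds ErbB2, was lower (29.8 to 36.2 against 22.9 to 28.3 FPKM, 1.26-fold, limma adjusted p = 0.000503). Sparc, a matrix glycoprotein of glia and vessels, was 1.36-fold lower (617 to 923 against 477 to 604 FPKM, limma adjusted p = 0.0166). Its call was lost without dupKi-het library 1, without wild-type library 6 and without the libraries rich in Ttr (difference -0.39 beside -0.44 with them, limma adjusted p = 0.111). Of 18 glucocorticoid-responsive genes, Tsc22d3, which encodes the glucocorticoid-induced leucine zipper, was 1.26-fold lower (83.8 to 119 against 77.1 to 83.6 FPKM, limma adjusted p = 0.00464) and Pdk4, a kinase that switches off pyruvate dehydrogenase, 1.28-fold higher (4.33 to 6.80 against 6.70 to 8.47 FPKM, limma adjusted p = 0.0162). The calls of Tsc22d3 and Pdk4 were lost without the libraries rich in Ttr (differences -0.34 and 0.35 beside -0.33 and 0.36 with them, limma adjusted p = 0.0658 and 0.0774), and that of Pdk4 also without dupKi-het library 1 or wild-type library 5.

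Some genes of vessels were higher. Of 29 tested endothelial and mural genes, 5 were higher (Flt1, Kdr, Cdh5, Tie1 and Esam), none was lower, and the median was 0.18. Their summed level overlapped between the groups (552 to 669.8 FPKM in wild-type, 615 to 701 FPKM in dupKi-het). Cd34, a surface sialomucin of endothelium that was not on that list, ran from 6.92 to 8.51 FPKM in wild-type and from 8.96 to 10.4 FPKM in dupKi-het, apart and 1.24-fold higher (limma adjusted p = 0.000314). Flt1, a receptor for vascular endothelial growth factor, was 1.34-fold higher with overlap (6.95 to 11.6 against 9.27 to 15.8 FPKM, limma adjusted p = 0.0232). Kdr, the main signalling receptor for that factor, was 1.24-fold higher (1.52 to 2.40 against 2.24 to 3.01 FPKM, limma adjusted p = 0.0135). Cdh5, the cadherin of endothelial junctions, was 1.28-fold higher (2.21 to 4.16 against 3.88 to 4.97 FPKM, limma adjusted p = 0.0445). The count of 5 ran from 1 to 7 in fits that left out 1 library and was 0 with the 2 genotypes alone. Flt1 lost its call without library 2 or 5 of either group, Cdh5 in 10 of the 12 such fits, Tie1 in 9 and Esam in 8. Without the libraries rich in Ttr the difference of Cdh5 was 0.46 beside 0.36 with them (limma adjusted p = 0.0606), and that of Esam 0.35 beside 0.30 (limma adjusted p = 0.0594).

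Interferon-response genes showed 3 called of 22, all higher, with a median of 0.25, and none of 9 genes of class I antigen presentation was called. Rsad2, which encodes the antiviral protein viperin, rose from 0.404 to 0.714 FPKM to 0.814 to 1.16 FPKM with no overlap (1.28-fold, limma adjusted p = 0.000706). In the block it reached 1 FPKM only in dupKi-het libraries 2, 3 and 5. It thus passed the filter of 1 FPKM in 3 libraries only through the group where it is high, and its call adds no support to the count. Only 9 of the 12 fits that left out 1 library tested it. Rtp4, an interferon-induced chaperone of receptors, was 1.3-fold higher (1.15 to 1.78 against 1.68 to 2.79 FPKM, limma adjusted p = 0.0197). Irf7, the transcription factor that amplifies interferon production, was 1.48-fold higher (0.704 to 2.28 against 1.94 to 3.31 FPKM, limma adjusted p = 0.0324). Both of these ranges overlapped. The count was 1 to 4 in fits that left out 1 library. Irf7 was not called without dupKi-het library 4, 5 or 6 or wild-type library 1, 2, 4 or 5, and Rtp4 not without dupKi-het library 5 or wild-type library 2. Without the libraries rich in Ttr, neither passed: the differences were 0.49 for Irf7 and 0.35 for Rtp4, beside 0.56 and 0.38 with them (limma adjusted p = 0.202 and 0.135).

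Markers of tissue at the edge of the dissection differed between libraries but were mostly not called. None of 21 genes of the choroid plexus passed, with a median difference of 0.82 and a summed level of 525 to 1309 FPKM in wild-type and 474 to 3753 FPKM in dupKi-het. Of 20 genes of the meninges 1 was called, and none of 10 ependymal genes. That 1 was Igfbp2, a binding protein of insulin-like growth factors, at 26.8 to 38.4 FPKM in wild-type and 34.9 to 84.1 FPKM in dupKi-het (1.74-fold, limma adjusted p = 0.0226). Its call was lost without dupKi-het library 1, 4 or 6, without wild-type library 2 or 6, and without the libraries rich in Ttr, where the difference was 0.38 beside 0.80 with them (limma adjusted p = 0.132). With a choroid plexus covariate, 379 genes were called, 332 of them also among the 378, and 19 astrocyte and 13 oligodendrocyte genes were lower. None of 24 microglial genes was called, and their sums overlapped (2206 to 3462 and 1765 to 2676 FPKM). A member of this list with a high mean is also on the cholesterol list (difference -0.47, not called), so the sum does not stand for microglia alone. Kcnk13, a potassium channel of the tandem-pore family that is prominent in microglia, was lower all the same (5.95 to 8.01 against 3.68 to 4.97 FPKM, 1.47-fold, limma adjusted p = 0.000403).

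Few neuronal genes were called. None of 22 synaptic genes, 15 neurofilament and cytoskeletal genes, 22 neuropeptide genes, 15 immediate early genes, 14 Hox genes or 13 cerebellar genes was called, and the synaptic median was -0.02. Of 10 genes of the noradrenergic locus coeruleus, Dbh, dopamine beta-hydroxylase, the enzyme that makes noradrenaline, was lower. It ran from 9.42 to 16.9 FPKM in wild-type (median 13.3) and from 6.58 to 8.44 FPKM in dupKi-het (median 8.12), 1.59-fold lower with no overlap (limma adjusted p = 0.00972). Without the libraries rich in Ttr its difference was -0.67, beside -0.66 with them, and the call was lost (limma adjusted p = 0.0958). None of 11 genes of the serotonergic raphe was called. Grin2c, the GluN2C subunit of NMDA receptors, was the 1 called gene of 19 excitatory receptor genes (9.60 to 11.8 against 7.56 to 9.72 FPKM, 1.26-fold lower, difference -0.33, limma adjusted p = 0.00512). Its difference was -0.28 without the libraries rich in Ttr (limma adjusted p = 0.129). In hindbrain Grin2c is also found in glia.

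Genes of protein quality control, which bear on ataxin-3's own function, showed few changes. None was called among 31 proteasome, 30 heat shock, 30 autophagy, 31 lysosomal and 28 ataxin-3 partner genes, with medians of -0.03 for the proteasome and 0.02 for heat shock. Of 41 deubiquitinases 3 were higher and none lower: Atxn3 itself, Usp25 (12.0 to 14.0 against 14.4 to 16.7 FPKM, 1.17-fold, limma adjusted p = 0.00226) and Otud7b, which cuts ubiquitin chains in NF-kappaB signalling (26.1 to 29.1 against 30.4 to 35.1 FPKM, 1.19-fold, limma adjusted p = 0.00304). Both ranges were apart, but the call of Usp25 was lost without the libraries rich in Ttr (difference 0.20 beside 0.22 with them, limma adjusted p = 0.0858). The 2 called genes of 29 in the endoplasmic reticulum stress list were Psat1, higher, and Slc7a11, lower. Of 28 DNA repair genes 1 was called, the checkpoint kinase Chek1 (0.883 to 1.72 against 0.536 to 1.02 FPKM, 1.31-fold lower, limma adjusted p = 0.0197). It lost its call without library 2 of either group, dupKi-het library 1 or wild-type library 6, and without the libraries rich in Ttr (difference -0.36 beside -0.39 with them, limma adjusted p = 0.146). Of 18 subunits of protein phosphatase 2A, Ppp2r3a was higher (10.5 to 12.3 against 12.5 to 15.5 FPKM, 1.20-fold, difference 0.26, limma adjusted p = 0.00908). Its difference stayed near that size but the call was lost after a median shift (0.24, limma adjusted p = 0.081), after quantile normalization (0.24, limma adjusted p = 0.0963) and without the libraries rich in Ttr (0.25, limma adjusted p = 0.0836). No gene was called among 65 ribosomal protein genes or 53 genes of the respiratory chain.

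**Figure D3:**
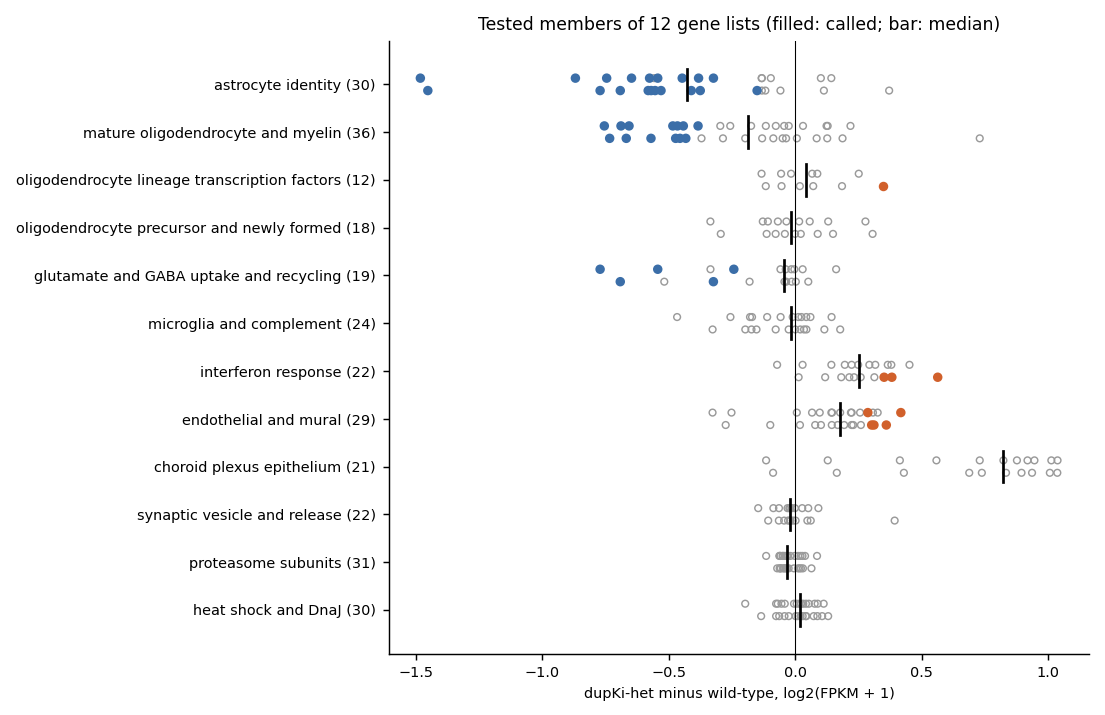
Difference between dupKi-het and wild-type pons on the log2(FPKM + 1) scale (horizontal axis) for the tested members of 12 gene lists (1 row each), 1 point a gene, filled where called, with a bar at the median of the list. The astrocyte list (19 lower of 30, median -0.43) and the mature oligodendrocyte list (13 lower of 36, median -0.19) lie to the left of 0.

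Called genes were spread over the genome. By chromosome, the share called among genes tested ran from 1.59% on chromosome 17 to 4.25% on chromosome 3, and was 2.52% (13 of 516) on chromosome 12, which carries Atxn3. Among the 20 tested genes to each side of Atxn3, 40 in all, 2 were called. Fbln5, an elastic fibre protein 4 genes away, was 1.3-fold lower (1.87 to 3.06 against 1.62 to 2.01 FPKM, limma adjusted p = 0.0268), and its call held in 6 of the 12 fits that left out 1 library: it was lost without dupKi-het library 1, 3 or 4, without wild-type library 2, 5 or 6, and without the libraries rich in Ttr (difference -0.35 beside -0.38 with them, limma adjusted p = 0.201). Kcnk13, described above, lies 16 genes away.

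The homozygous duplicated knock-in stands in the first block of columns, with its own wild-type libraries, so its comparison shares no library with the heterozygous one. There 232 of 14044 genes tested were called (1.65%; 0.498% higher and 1.15% lower), and 118 to 162 when 1 of its libraries was left out: 149, 125 and 130 without wild-type library 1, 2 or 3 and 121 and 118 without dupKi-hom library 1 or 2. Of the 378 genes called in dupKi-het, 336 were tested in that block, and 302 of these (89.9%) differed in the same direction, against 52.3% of all 12887 genes tested in both. In both comparisons 111 genes were called, 95 lower and 16 higher, and all 111 had the same direction. They were 33% of the dupKi-het calls tested in both and 51.2% of the 217 dupKi-hom calls tested in both, where 1.68% of all genes tested in both were called in dupKi-hom. The direction was shared by 297 to 306 of the dupKi-het calls when a library of the homozygous comparison was left out, and 71 to 101 genes were then called in both. Libraries of that block held Ddx3y, as male tissue does, and copy number, sex and block cannot be told apart as sources of any difference between the 2 comparisons, which was itself not tested.

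Astrocyte genes fell in both. In dupKi-hom 14 of 30 were lower and none higher (median -0.40). Agt differed by -1.19 (limma adjusted p = 2.60e-05) and Etnppl by -1.30 (limma adjusted p = 0.0011) in dupKi-hom, beside -1.45 and -1.48 in dupKi-het. Of the oligodendrocyte list, 15 of 39 were lower and 1 higher in dupKi-hom (median -0.25). Several of its members had larger falls in the homozygote, each against the wild-type libraries of its own block. Car2 differed by -1.24 in dupKi-hom (limma adjusted p = 2.53e-06) and -0.69 in dupKi-het, Klk6 by -1.51 (limma adjusted p = 3.12e-05) and -0.73, and Il33 by -1.26 (limma adjusted p = 3.12e-05) and -0.75. Erbb2ip stood at -0.84 (limma adjusted p = 0.000874) in dupKi-hom and -0.34 in dupKi-het. Among rising genes, Chdh stood at 1.19 (limma adjusted p = 0.000517) and 1.06, Acy3 at 1.21 (limma adjusted p = 3.59e-05) and 0.77, and Slc45a3 at 0.91 (limma adjusted p = 0.00147) and 0.62. Atxn3 stood at 0.75 (limma adjusted p = 0.00939) and 0.67.

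Other genes called in dupKi-het were not called in dupKi-hom. Pcdh15 differed by 0.08 there (95% interval -0.30 to 0.46, limma adjusted p = 0.916), beside 0.65 in dupKi-het. Nnat differed by -0.52 (95% interval -0.97 to -0.07, limma adjusted p = 0.324) and Mt2 by -0.70 (95% interval -1.12 to -0.28, limma adjusted p = 0.13), intervals that reach values near those of the heterozygote. Dbh differed by -0.38 (95% interval -1.25 to 0.50, limma adjusted p = 0.8). Of the vessel genes, in dupKi-hom 2 of 28 were lower and none higher (median -0.19), with Flt1 at -0.29 (limma adjusted p = 0.251) and Cd34 at -0.12 (limma adjusted p = 0.72). Of the interferon list 1 of 22 was higher in dupKi-hom, where the median was 0.32.

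**Figure D4:**
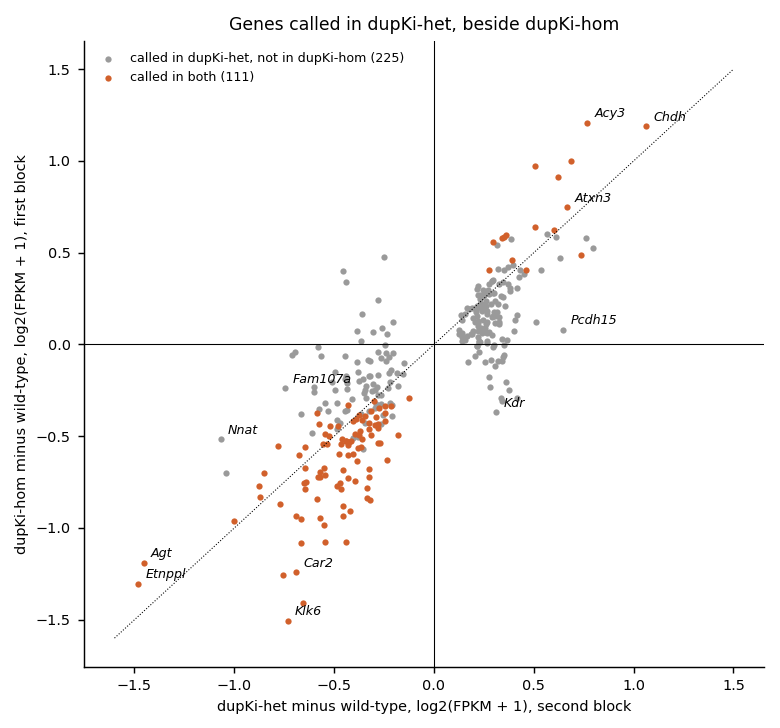
Difference from wild-type on the log2(FPKM + 1) scale in dupKi-het (horizontal axis) and dupKi-hom (vertical axis), each against the wild-type libraries of its own block, for the 336 genes called in dupKi-het and tested in both, 1 point a gene, coloured by whether dupKi-hom also called it. The 111 genes called in both lie in the quadrants of shared direction, 95 of them lower, and Pcdh15 lies near 0 for dupKi-hom.

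Within the block, dupKi-het was also set against the other disease genotypes directly. These comparisons share the dupKi-het libraries with each other and with the comparison against wild-type, so their values are given side by side and no overlap is drawn. Against Ki-het, 1577 genes were called (10.7%; 1162 or 7.88% higher in dupKi-het, 415 or 2.81% lower). Against Ki-hom, 1448 were called (9.82%; 1105 or 7.49% higher, 343 or 2.33% lower), and against YAC84Q 129 were called (0.874%; 21 or 0.142% higher, 108 or 0.732% lower). Single libraries moved these counts by more than 1.5 times: 1018 genes were called against Ki-het without dupKi-het library 5, 885 without Ki-het library 1 and 987 without Ki-het library 2. Against Ki-hom, 888 were called without dupKi-het library 5, 872 without Ki-hom library 1 and 949 without Ki-hom library 3. Against YAC84Q, 75 were called without dupKi-het library 4, 62, 83 and 60 without YAC84Q library 2, 3 or 4, and 50 without the libraries rich in Ttr. For scale, the comparisons of the other genotypes with wild-type called 17 genes in Ki-het (0.115%), 89 in Ki-hom (0.603%), 78 in YAC84Q (0.529%) and 1 in YAC15Q (0.00678%).

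Astrocyte genes were lower in dupKi-het than in each of the other 3 disease genotypes: 18 lower and 2 higher of 30 against Ki-het, 15 and 2 against Ki-hom, and 11 and 0 against YAC84Q, with medians of -0.32, -0.26 and -0.29. Over all genes tested, 2.81%, 2.33% and 0.732% were lower in the same order. Agt had means of 60.3 ± 6.45 FPKM (SD, n = 6) in wild-type, 59.5 ± 4.00 FPKM in Ki-het, 57.0 ± 5.03 FPKM in Ki-hom, 51.7 ± 10.2 FPKM in YAC84Q, 61.0 ± 6.83 FPKM in YAC15Q and 21.5 ± 3.04 FPKM in dupKi-het. The dupKi-het mean stood alone below the other 5. The differences of dupKi-het from Ki-het, Ki-hom and YAC84Q were -1.44, -1.37 and -1.22 (limma adjusted p = 4.45e-08, 1.18e-07 and 1.26e-06). Kcnj10 differed by -0.51, -0.44 and -0.37 in the same order (limma adjusted p = 9.16e-07, 1.36e-05 and 0.000146). Mt2 differed by -1.06, -1.05 and -0.84 (limma adjusted p = 3.56e-05, 5.66e-05 and 0.00129) and Nnat by -1.09, -1.06 and -0.88 (limma adjusted p = 1.81e-05, 3.93e-05 and 0.00059). Glul was closer to YAC84Q, with a difference of -0.32 (limma adjusted p = 0.0327), than to Ki-het at -0.69 (limma adjusted p = 1.38e-06). That order of the 2 differences was not tested.

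Fewer oligodendrocyte genes were called between the disease genotypes. Of 36, 4 were lower and 1 higher in dupKi-het than in Ki-het, 3 and 1 against Ki-hom, and none passed in either direction against YAC84Q. Over all genes tested, 10.7%, 9.82% and 0.874% were called in the same order (2.81%, 2.33% and 0.732% lower). Against Ki-het and Ki-hom the calls of the list in both directions together were near that share, so they are not particular to it. The medians were -0.12, -0.10 and -0.07. Il33 had means of 95.5 ± 13.2 FPKM in wild-type, 64.4 ± 5.06 FPKM in Ki-het, 53.7 ± 6.77 FPKM in Ki-hom, 60.6 ± 5.68 FPKM in YAC84Q, 103 ± 6.46 FPKM in YAC15Q and 56.4 ± 9.28 FPKM in dupKi-het. The means of the 4 genotypes with a long repeat lay together, below both wild-type and YAC15Q. The difference of dupKi-het from YAC84Q was -0.11 (95% interval -0.34 to 0.11, limma adjusted p = 0.871). Car2 was lower in dupKi-het than in Ki-het by -0.45 (limma adjusted p = 0.000971), while its difference from Ki-hom was -0.15 (95% interval -0.31 to 0.02, limma adjusted p = 0.269).

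Of the rising genes, Chdh averaged 2.01 ± 0.276 FPKM in wild-type, 3.42 ± 0.263 FPKM in Ki-het, 4.10 ± 0.171 FPKM in Ki-hom, 4.55 ± 0.459 FPKM in YAC84Q, 5.29 ± 0.561 FPKM in dupKi-het and 2.21 ± 0.270 FPKM in YAC15Q. DupKi-het was above Ki-het by 0.51 (limma adjusted p = 0.000155) and above Ki-hom by 0.30 (limma adjusted p = 0.0132), but its distance of 0.18 from YAC84Q did not pass (95% interval 0.03 to 0.34, limma adjusted p = 0.403). Pcdh15 was 0.66 above Ki-het (limma adjusted p = 6.44e-05) and 0.65 above Ki-hom (limma adjusted p = 0.000104), while it differed from YAC84Q by 0.04 (95% interval -0.15 to 0.22, limma adjusted p = 0.985). Acy3 differed from Ki-het by 0.51 (limma adjusted p = 0.00203), and from Ki-hom by 0.05 (95% interval -0.16 to 0.25, limma adjusted p = 0.823). Dbh was 0.04 from YAC84Q (95% interval -0.30 to 0.38, limma adjusted p = 0.996) and was -0.82 from Ki-het (limma adjusted p = 0.00232).

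Vessel and interferon genes were also higher in dupKi-het than in the single-repeat knock-ins. Of 29 endothelial and mural genes, 13 were higher against Ki-het, 16 higher and 1 lower against Ki-hom, and 3 higher against YAC84Q, where 7.88%, 7.49% and 0.142% of all genes tested were higher. Of 22 interferon genes, 7, 8 and 1 were higher. Rsad2 is among the 22 and passed the filter only through dupKi-het, so it can add no support to these counts. Flt1 averaged 6.48 ± 0.682 FPKM in Ki-het, 6.29 ± 0.554 FPKM in Ki-hom, 9.02 ± 0.208 FPKM in YAC84Q and 9.76 ± 0.175 FPKM in YAC15Q. DupKi-het exceeded Ki-het by 0.90 (limma adjusted p = 2.78e-05), Ki-hom by 0.93 (limma adjusted p = 2.70e-05) and YAC84Q by 0.47 (limma adjusted p = 0.0471). Wild-type libraries ran from 6.95 to 11.6 FPKM, and dupKi-het exceeded wild-type by 0.42, less than it exceeded either single-repeat knock-in. The means of Ki-het and Ki-hom lay below the lowest wild-type library. How far levels below wild-type in those knock-ins add to the counts of vessel and interferon genes was not tested. The 95% interval of the difference of Flt1 between YAC84Q and wild-type was -0.29 to 0.18.

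**Figure D5:**
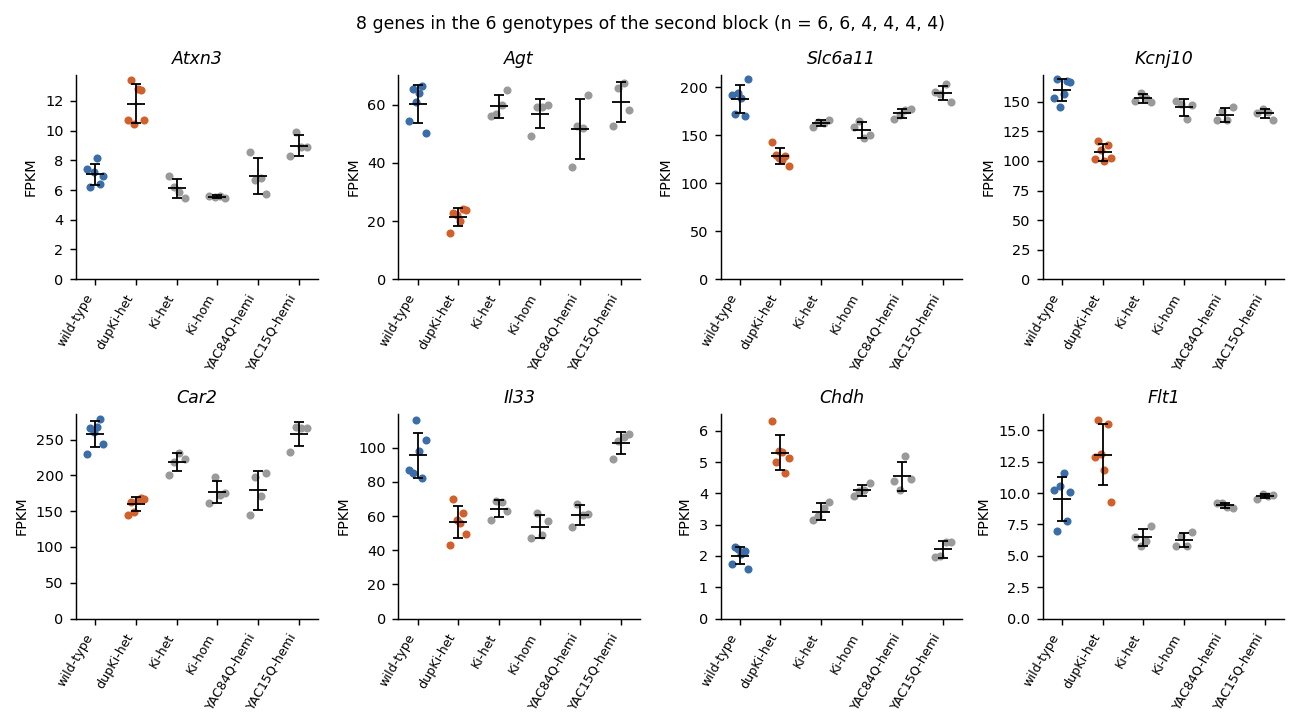
FPKM by genotype in the second block for genes described in the text, 1 point a library, with the mean of each genotype as a bar. For Agt the dupKi-het libraries sit alone near 21.5 FPKM, while for Il33 they share the range of Ki-het, Ki-hom and YAC84Q.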

How the data were processed

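RNA sequencing of pons was compared between genotypes. The authors deposited FPKM values per gene for 37 libraries in 1 table, with no read counts. Per the submitters' processing notes, the authors used Cuffdiff, DESeq, TopHat2, Trimmomatic, FastQC and CASAVA 1.8.2 and the genome build mm8, with no role given for each. Whether counting used strand is not given in the sources used here, nor is the depth of each library. Low values did not fall on shared steps from which whole reads could be recovered, so no count test was run and intervals rest on the spread between libraries.

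Groups come from the labels, matched to the column names. Libraries are numbered 1 to 6 from those names. Names of 3 wild-type columns in each block fit 2 samples of that genotype, so these columns were used by group only. Lines whose symbol had become a date (27) were dropped, and 62 genes listed at 0 throughout 1 genotype of the second block while at 1 FPKM or more in another were left out, Mbp among them. Genes with at least 1 FPKM in at least 3 libraries were kept. The log2(FPKM + 1) values were fitted with limma 3.58.1 in R 4.3.3 (lmFit, then eBayes with trend), with 1 mean per genotype over all 28 libraries of the second block, and p-values were adjusted by Benjamini-Hochberg over all genes kept. The first block (9 libraries) was fitted separately, since the blocks differ in sex. The fit was tested on simulated data.

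Members and gene lists (51) were chosen with earlier results of these data known, some lists by an earlier session after it had seen them, so their counts are descriptions. Named genes followed a rule: Atxn3; the 15 largest called changes each way with all 6 libraries on 1 side; the 6 called each way with the highest mean; up to 4 called members per list, or up to 2 of the highest mean where none was called; called neighbours within 20 tested genes of Atxn3; and the 5 largest each way per direct contrast among genes also called against wild-type. Predicted models, small RNAs and pseudogenes were passed over. It took 122 genes, of which 61 are not named, and some results are not reported here. Alternatives covered the pseudocount, filter, scaling, samples fitted, block, weights and left-out libraries. Sequences were read from GENCODE M21 and RefSeq on GRCm38, with no coordinates taken from mm8.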

Additional observations from a re-analysis of the deposited data

Results flagged for a closer look

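Of the 61 genes followed library by library, with wild-type and dupKi-het as separate groups (122 groups), 5 groups held 1 library set apart from the other 5 by Dixon's criterion (0.625 for 6 samples), where chance flags about 1 group in 20. In dupKi-het the lowest library held 23.1 FPKM of Itih3 (the others 30.2 to 33.8), 534 FPKM of Aldoc (the others 615 to 639.6) and 477 FPKM of Sparc (the others 559 to 604). The highest dupKi-het library held 21.6 FPKM of Elovl1 (the others 15.2 to 17.5). In wild-type the highest library held 643 FPKM of Ttr, a choroid plexus gene, against 27.7 to 223 FPKM in the others. Each of these is library 1 of its group.

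For 3 vessel genes the 6 dupKi-het libraries all lay above their wild-type mean while the 3 dupKi-hom libraries all lay below theirs. The differences were 0.31 in dupKi-het and -0.37 in dupKi-hom for Kdr, 0.36 and -0.20 for Cdh5, and 0.31 and -0.12 for Cd34. The difference between the 2 comparisons was not tested, and sex, block and copy number cannot be told apart in it.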

How the results depend on the processing

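The rise of Atxn3, the 19 lower astrocyte genes and the 13 lower oligodendrocyte genes kept their direction and call, or a count within 1.5 times, under every alternative run, and no result of a single gene or comparison changed sign. The count of 378 genes moved to 227 with the 2 genotypes alone, 579 with array weights and 813 with a covariate for the first-numbered libraries, an alternative chosen after seeing the data. It ran from 257 to 467 with 1 library left out. The balance of calls (174 higher, 204 lower) turned to more higher than lower under array weights (297 and 282), the replicate block (474 and 427), the choroid plexus covariate (196 and 183), the covariate for first-numbered libraries (431 and 382), without the libraries rich in Ttr (149 and 118), without dupKi-het library 6 (254 and 213) and without wild-type library 4 (196 and 191). Against Ki-het, Ki-hom and YAC84Q, array weights gave 3077, 3122 and 671 genes, and that covariate 3710, 3244 and 388. With 1 library left out these counts ran from 885 to 2002, 872 to 1829 and 60 to 141, and without the libraries rich in Ttr 50 genes were called against YAC84Q. In dupKi-hom 146 genes were called with no filter, and 118 to 162 with 1 library left out. The cause was not tested.

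A replicate block gave 901 genes against wild-type, 4238 against Ki-het, 3849 against Ki-hom and 598 against YAC84Q. Fitted on wild-type and dupKi-het alone it gave 297 genes, 205 of them also among the 378. Same-numbered libraries of wild-type and dupKi-het deviated together with r = 0.34, 0.07, -0.02, 0.04, 0.06 and 0.06 for numbers 1 to 6, and only those numbered 1 and 2 matched their own number best. Libraries numbered 1 thus shared a deviation, with r of 0.16 to 0.37 between those of the genotypes. For numbers 2 to 6 the values gave little sign that the numbers pair the libraries.

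Among called genes named in the text, 22 missed the threshold without the libraries rich in Ttr (limma adjusted p 0.0535 to 0.216), 13 with the 2 genotypes alone (0.0586 to 0.215) and 9 without the first-numbered libraries (0.0539 to 0.0851). Fewer samples or genotypes enter these fits. Array weights ended the calls of Cdkn1c, Igfbp2 and Irf7, no filter those of Cdh5, Tie1, Esam, Fbln5 and Irf7, the choroid plexus covariate that of Irf7 (chosen after seeing the data) and a pseudocount of 0.1 those of Cdh5 and Tie1. Quantile normalization ended those of Aspa and Ppp2r3a, and a median shift those of Pdk4 and Ppp2r3a. Read depth is unknown, so what it limits cannot be stated.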
